A study of Homo sapiens with 4 samples.

Results

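KANK2 and PTK2 are host genes of focal adhesion proteins, and their circular RNAs (circRNAs) are described here library by library. Every entry of the circRNA tables that names KANK2 or PTK2 as its gene was taken, which gave 24 circRNAs, 3 of KANK2 and 21 of PTK2, of 11760 circRNAs and 4410 host genes in all. Reads in at least 1 library were present for 16 of the 24, namely 3 of KANK2 and 13 of PTK2, against 7587 of all 11760. Both genes were selected from the measured difference between DDX5 and NC cells, in which a circRNA of KANK2 was higher and a circRNA of PTK2 was lower. The values of their circRNAs in that comparison are therefore a description, and no p-value is printed for them. Where members are counted as passing a threshold, this is no test of them.

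The libraries came from AGS cells, an established human gastric adenocarcinoma line. Cells were transfected with FLAG-DDX5, an expression construct for the RNA helicase DDX5 (DDX5, 2 libraries), or with an empty vector that carries only the FLAG tag (negative control, NC, 2 libraries). RNA was cleared of rRNA and treated with RNase R, which digests linear RNA, before sequencing. Both groups are transfections of 1 cell line. The replicates are described as biological, without a statement on whether each was its own culture. P-values therefore refer to the spread between these libraries only.

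A circRNA forms when the end of a downstream exon is joined to the start of an upstream exon of the same transcript, a reaction called back-splicing, and a read across that junction counts the circle rather than the mRNA. Focal adhesions are the protein assemblies through which integrins in the plasma membrane hold on to the extracellular matrix and connect it to actin. KANK2 is a scaffold of the KANK family, which binds talin at the rim of focal adhesions and connects them with protein complexes that hold microtubule ends at the cell cortex. PTK2 encodes focal adhesion kinase, a tyrosine kinase with an N-terminal FERM region, a central kinase region and a C-terminal focal adhesion targeting region, which relays integrin signals together with SRC.

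Back-splice reads numbered 78377 and 60178 in DDX5 replicates 1 and 2, and 73173 and 97961 in NC replicates 1 and 2, the order in which paired values are given below. Levels are given as RPM, the circle's reads scaled to an equal total in every library, and a single read stood for 10.2 to 16.6 RPM. Where no read was counted, up to 3 reads remain possible, a limit of 30.6 to 49.9 RPM that covers counting error only. Folds given below as at least a value use 3 reads over the group as floor, and they too cover counting error only. Over all circRNAs, 35.6% of library values with 10 or more reads had none in the other library of the group. Of 20 gastric and epithelial marker genes only EPCAM and CDH1 were listed as hosts, at a summed level of 893 and 1097 RPM in DDX5 cells against 984 and 898 RPM in NC cells. None of 15 stromal, endothelial and immune markers was listed as a host. DDX5 itself was not listed as a host either, so the transfection could not be checked from these tables.

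All 3 KANK2 circRNAs were built from the ends of 4 exons. The 4 back-splice positions in the files fell on exon ends of the 13-exon principal KANK2 transcript (GENCODE 29, GRCh38) with 1 constant shift, while the next best shift placed 1. KANK2 lies on the minus strand of chromosome 19. The positions are printed as the files give them, and they are not GRCh38 positions although the submitters' processing notes name hg38.

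The most abundant KANK2 circRNA joined exons 5 and 6 (chr19:11289021-11289396), which code for residues 417 to 507 of the 851-residue protein. The 2 exons amount to 271 nt in the principal transcript and 295 nt in another annotated transcript, and a short intron of 105 nt separates them in the principal transcript. The intron upstream of exon 5 measured 14110 nt and the one after exon 6 measured 1527 nt. The second circRNA joined exons 11 and 12 (chr19:11280553-11280924), 291 nt that code for residues 738 to 834 in the C-terminal part that carries the ankyrin repeats. An intron of 81 nt lies between these exons. The third circRNA ran from exon 5 to exon 12 (chr19:11280553-11289396), with 1253 nt of exon sequence. Back-splice reads do not show whether the short introns stay in the circles.

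The back-splice junctions are printed from the GENCODE 29 transcript because they are the sequences that were counted. The last 30 bases of the downstream exon are in lower case, followed by the first 30 bases of the upstream exon in capitals.
KANK2 exons 5 to 6 junction: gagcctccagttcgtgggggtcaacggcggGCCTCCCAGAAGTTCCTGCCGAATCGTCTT
KANK2 exons 11 to 12 junction: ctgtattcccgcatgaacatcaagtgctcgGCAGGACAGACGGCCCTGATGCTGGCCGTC
KANK2 exons 5 to 12 junction: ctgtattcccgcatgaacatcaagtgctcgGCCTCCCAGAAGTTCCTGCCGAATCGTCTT
The long circle used the capital letters of the first junction and the lower-case letters of the second, so it shared its acceptor (exon 5) with one and its donor (exon 12) with the other. The full spliced circle of exons 5 to 6, with its first 30 bases in capitals and a GC content of 67.9%, is printed because it carried most of the KANK2 reads.
KANK2 exons 5 to 6 circle: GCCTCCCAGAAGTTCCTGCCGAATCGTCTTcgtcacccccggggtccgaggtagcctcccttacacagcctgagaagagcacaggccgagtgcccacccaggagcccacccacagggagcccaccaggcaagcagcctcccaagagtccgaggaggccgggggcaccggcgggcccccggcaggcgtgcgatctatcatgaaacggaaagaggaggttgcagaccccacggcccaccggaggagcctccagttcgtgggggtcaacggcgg

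For the exon 5 to 6 circle of KANK2, 29 and 46 reads were counted in DDX5 cells, and none in either NC library. Its level was 370 and 764 RPM in DDX5 cells, with a mean of 567 ± 279 RPM (SD, n = 2), and it was listed at 0 in both NC libraries. Both DDX5 libraries were high, both NC libraries were at 0, and the groups did not overlap. Against a floor of 3 reads over both NC libraries together, 17.5 RPM, it was at least 30.9-fold higher in DDX5 cells. With a mean of 284 RPM over the 4 libraries it ranked 765 of 7587 circRNAs with reads.

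The exon 11 to 12 circle of KANK2 had 8 reads in DDX5 replicate 1, 102 RPM, and 0 reads in the other 3 libraries. The exon 5 to 12 circle had 2 reads in NC replicate 2, 20.4 RPM, and none elsewhere. Each was thus seen in 1 library only, and the groups overlapped for both.

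Summed over its circRNAs, KANK2 reached 37 and 46 reads in DDX5 cells, against 0 and 2 in NC cells. The sums were 472 and 764 RPM in DDX5 cells, 618 ± 207 RPM (SD, n = 2), and 0 and 20.4 RPM in NC cells, 10.2 ± 14.4 RPM. KANK2 ranked 801 of 3532 host genes with reads by this sum. The exon 5 to 6 circle supplied 78.4% of the KANK2 reads in DDX5 replicate 1 (95% Wilson interval 62.8 to 88.6%) and all 46 in DDX5 replicate 2 (interval 92.3 to 100%). The only KANK2 reads of NC cells, 2 of 2, came from the exon 5 to 12 circle instead.

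**Figure D1:**
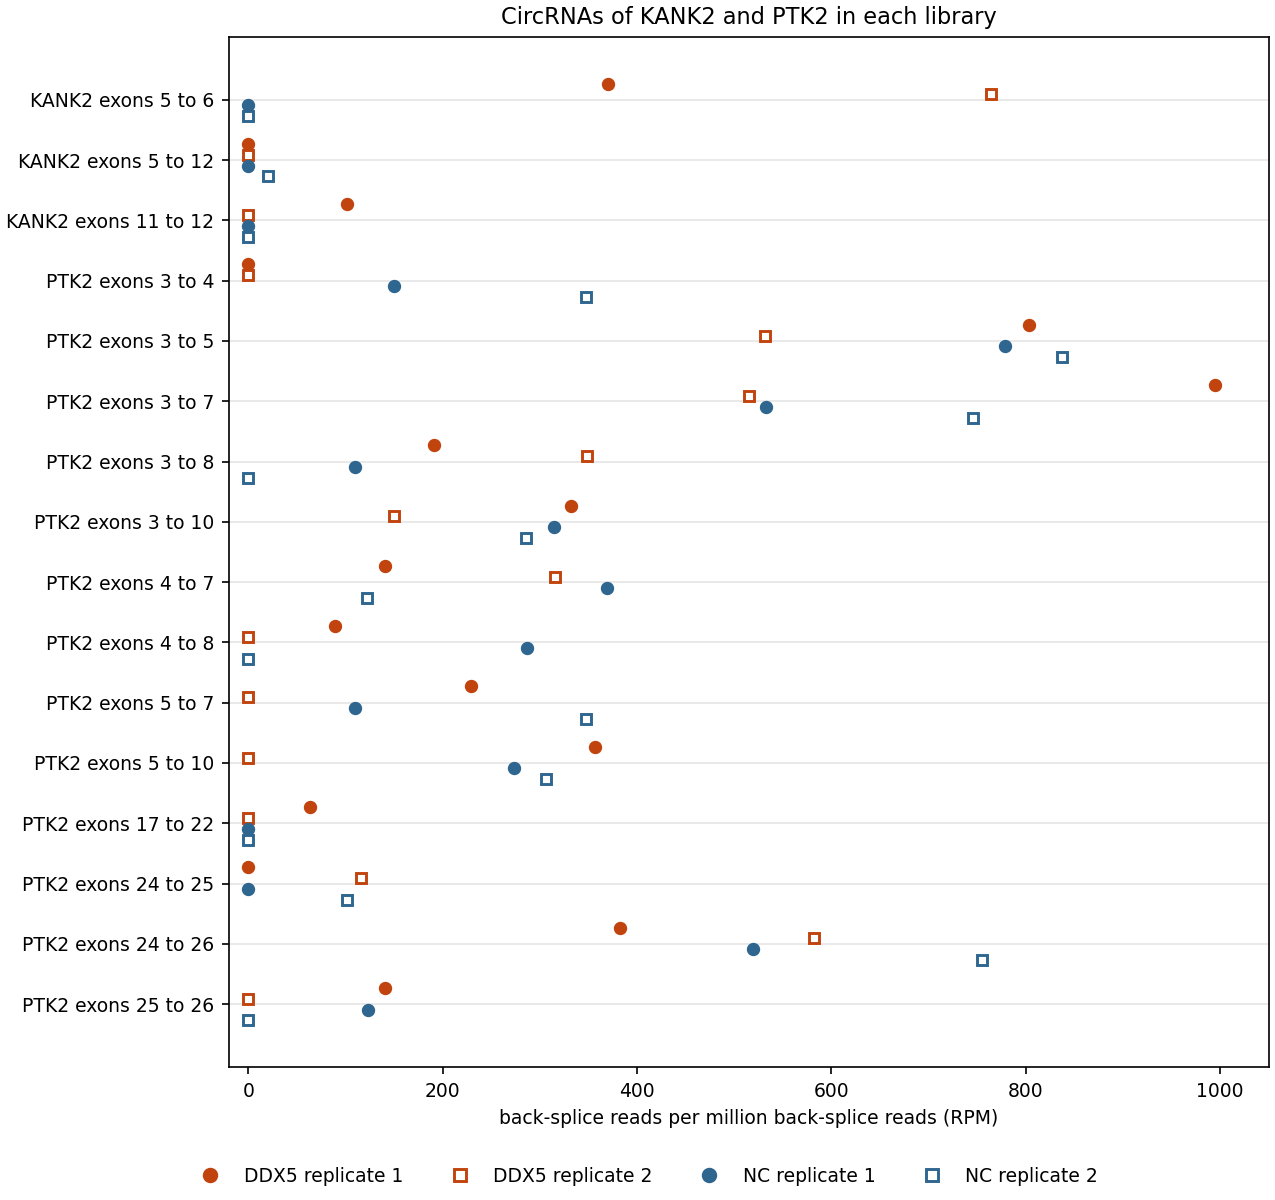
Level of each KANK2 and PTK2 circRNA with reads in the 4 libraries, in RPM on a linear axis, with 1 point per library, filled for replicate 1 and open for replicate 2. The exon 5 to 6 circle of KANK2 lay at 370 and 764 RPM in DDX5 cells and at 0 in NC cells, and the exon 3 to 4 circle of PTK2 at 0 in DDX5 cells and at 150 and 347 RPM in NC cells.

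PTK2 gave many more reads than KANK2, 1084 against 85. Its 21 circRNAs had 22 different back-splice positions, and all 22 fell on exon ends of the 32-exon principal transcript with 1 shift, while the next best shift placed 2. PTK2 lies on the minus strand of chromosome 8. The 13 circles with reads held between 2 and 8 exons. In the principal transcript they had between 225 and 899 nt of exon sequence, with a median of 453 nt. The 8 circles without reads in any library held between 210 and 1125 nt, with a median of 586 nt. Those 8 were exons 3 to 12, 4 to 10, 4 to 12, 8 to 12, 11 to 14, 17 to 21, 17 to 23 and 27 to 29.

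The summed PTK2 level was 3726 and 2559 RPM in DDX5 cells, from 292 and 154 reads. It was 3567 and 3848 RPM in NC cells, from 261 and 377 reads. The group means were 3142 ± 825 RPM and 3708 ± 199 RPM (SD, n = 2), a ratio of 0.848 or -0.24 on the log2 scale, and DDX5 replicate 1 lay between the NC libraries. Without DDX5 replicate 2, the shallowest library, the log2 ratio was 0.00695, so that the direction rested on that library. PTK2 ranked 24 of 3532 host genes by mean level and 7 by the number of circRNAs with reads, a place it shared with 6 others. The number of PTK2 circles with reads was 11 and 7 in DDX5 cells against 11 and 9 in NC cells.

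The back-splices of PTK2 fell into separate stretches of the gene. Circles within exons 3 to 10, which code for the N-terminal residues 1 to 289, most of them in the FERM region, held 84.2 and 72.7% of the PTK2 reads in DDX5 cells against 82.0 and 77.7% in NC cells. Circles within exons 24 to 26, residues 715 to 833 of 1052 between the kinase region and the focal adhesion targeting region, held 14.0 and 27.3% in DDX5 cells against 18.0 and 22.3% in NC cells. The exon 17 to 22 circle, residues 445 to 677 in the kinase region, had 5 reads in DDX5 replicate 1 and none in the other libraries.

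**Figure D2:**
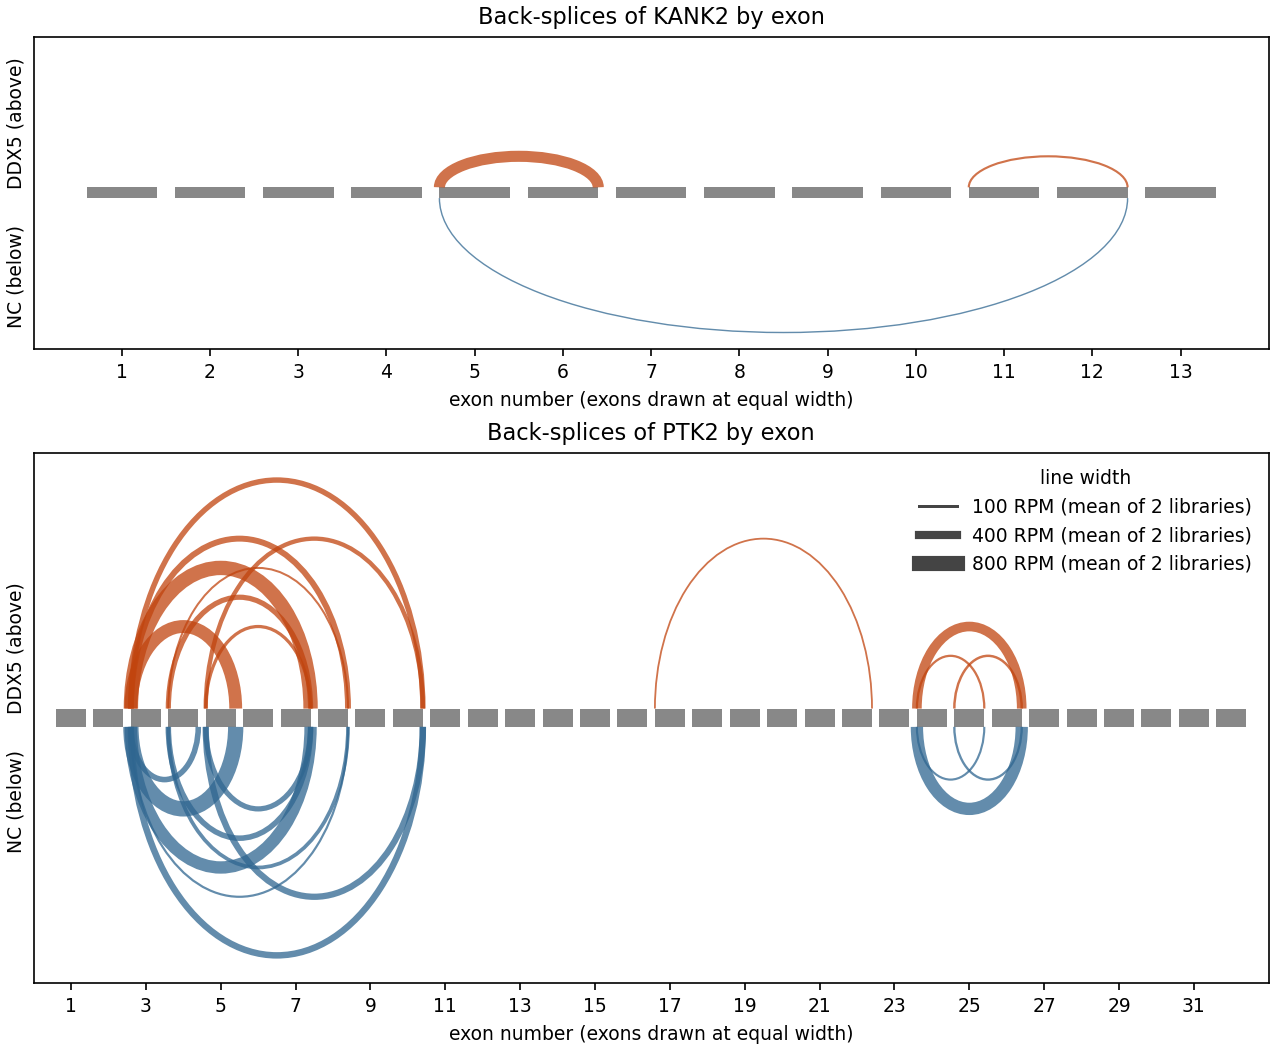
Back-splices of KANK2 and PTK2 drawn as arcs from the first to the last exon of each circle, over exons drawn at equal width, with the mean of the 2 DDX5 libraries above and of the 2 NC libraries below and line width proportional to RPM plus a constant. The PTK2 arcs gather at exons 3 to 10 and 24 to 26 in both groups, and the exon 3 to 4 arc is drawn for NC cells only.

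Exon 3 was the exon at which PTK2 circles began most often. It holds the start codon of the protein, and it opened 5 circles with reads that together took 58.1% of the 1084 PTK2 reads of the 4 libraries. By library, circles beginning at exon 3 took 62.3 and 60.4% of the PTK2 reads in DDX5 cells against 52.9 and 57.6% in NC cells. The intron before exon 3 was 93308 nt, the longest of those flanking any of the 21 circles. Exon 24 opened 17.9% of the reads, exon 5 12.7% and exon 4 8.95%. On the other side, exon 7 closed 32.3% of the reads, exon 5 21.6%, exon 26 18.2% and exon 10 15.1%.

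The exon 3 to 5 circle of PTK2 (chr8:141874411-141900868, 482 nt, residues 1 to 150) was the most abundant. It had 804 and 532 RPM in DDX5 cells against 779 and 837 RPM in NC cells, from 63, 32, 57 and 82 reads. DDX5 replicate 2 was the low library, the other 3 lay close together, and the groups overlapped. Relative to the other PTK2 circles it hardly varied, with a share of 21.6 and 20.8% of the PTK2 reads in DDX5 cells against 21.8 and 21.8% in NC cells. It ranked 197 of the 7587 circRNAs with reads.

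The exon 3 to 7 circle (chr8:141856359-141900868, 625 nt, residues 1 to 198) had 995 and 515 RPM in DDX5 cells against 533 and 745 RPM in NC cells. The highest and the lowest value were both from DDX5 libraries. Its share of the PTK2 reads was 26.7 and 20.1% in DDX5 cells against 14.9 and 19.4% in NC cells. The nearest shares were those of DDX5 replicate 2 (95% Wilson interval 14.6 to 27.2%) and NC replicate 2 (15.7 to 23.7%). Their intervals overlapped, and these cover counting error only. No difference between the groups is read from the shares.

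The exon 24 to 26 circle (chr8:141710990-141716304) had 383 and 582 RPM in DDX5 cells against 519 and 755 RPM in NC cells. Its exon sequence amounts to 357 nt in the principal transcript and 219 nt in another annotated transcript. Its levels overlapped between groups, and its share of the PTK2 reads ran from 10.3% in DDX5 replicate 1 to 22.7% in DDX5 replicate 2, with 14.6 and 19.6% in NC cells between them. The smaller circles from the same exons were seen in 2 libraries each. Exons 24 to 25 had 7 reads in DDX5 replicate 2 and 10 in NC replicate 2, and exons 25 to 26 had 11 in DDX5 replicate 1 and 9 in NC replicate 1.

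PTK2 exons 3 to 4 (chr8:141889570-141900868, 394 nt, residues 1 to 121) was the circle that was lower in DDX5 cells. No read of it was counted in either DDX5 library, but 11 and 34 in NC cells, where its level was 150 and 347 RPM, 249 ± 139 RPM (SD, n = 2). Both NC libraries were above both DDX5 libraries. Against a floor of 3 reads over both DDX5 libraries, 21.7 RPM, it was at least 12.1-fold lower in DDX5 cells. It made up 4.21 and 9.02% of the PTK2 reads in NC cells. For its 0 reads in the DDX5 libraries, the upper Wilson limits of the share were 1.30 and 2.43%, which cover counting error only.

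The exon 3 to 8 circle (chr8:141840571-141900868, 680 nt, residues 1 to 216) ran the other way. It had 15 and 21 reads in DDX5 cells against 8 and 0 in NC cells. Its level was 191 and 349 RPM in DDX5 cells against 109 and 0 RPM in NC cells, and 5.56-fold higher in DDX5 cells from pooled reads. The groups did not overlap, with DDX5 replicate 1 and NC replicate 1 nearest to each other. Both circles begin at exon 3. Of the 13 PTK2 circles with reads, 1 had both DDX5 libraries above both NC libraries and 1 the reverse, 7.69% each. Over all circRNAs with reads these shares were 6.77% and 7.92%, so nothing is read from the opposite directions.

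The remaining PTK2 circles overlapped between the groups. Exons 3 to 10 had 332 and 150 RPM in DDX5 cells against 314 and 286 RPM in NC cells, with DDX5 replicate 2 the low library. Exons 4 to 7 had 140 and 316 RPM in DDX5 cells against 369 and 123 RPM in NC cells, so that each group held 1 high and 1 low library. Exons 4 to 8 had 89.3 RPM in DDX5 replicate 1 and 287 RPM in NC replicate 1 and was at 0 in both replicates 2.

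Both circles that begin at exon 5 had no reads in DDX5 replicate 2 and reads in the other 3 libraries. Exons 5 to 7 had 230 and 0 RPM in DDX5 cells against 109 and 347 RPM in NC cells. Exons 5 to 10 had 357 and 0 RPM in DDX5 cells against 273 and 306 RPM in NC cells. Together they made up 15.8, 10.7 and 17.0% of the PTK2 reads in DDX5 replicate 1, NC replicate 1 and NC replicate 2. For 0 of 154 reads in DDX5 replicate 2, the upper Wilson limit of the share was 2.43%, which covers counting error only.

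**Figure D3:**
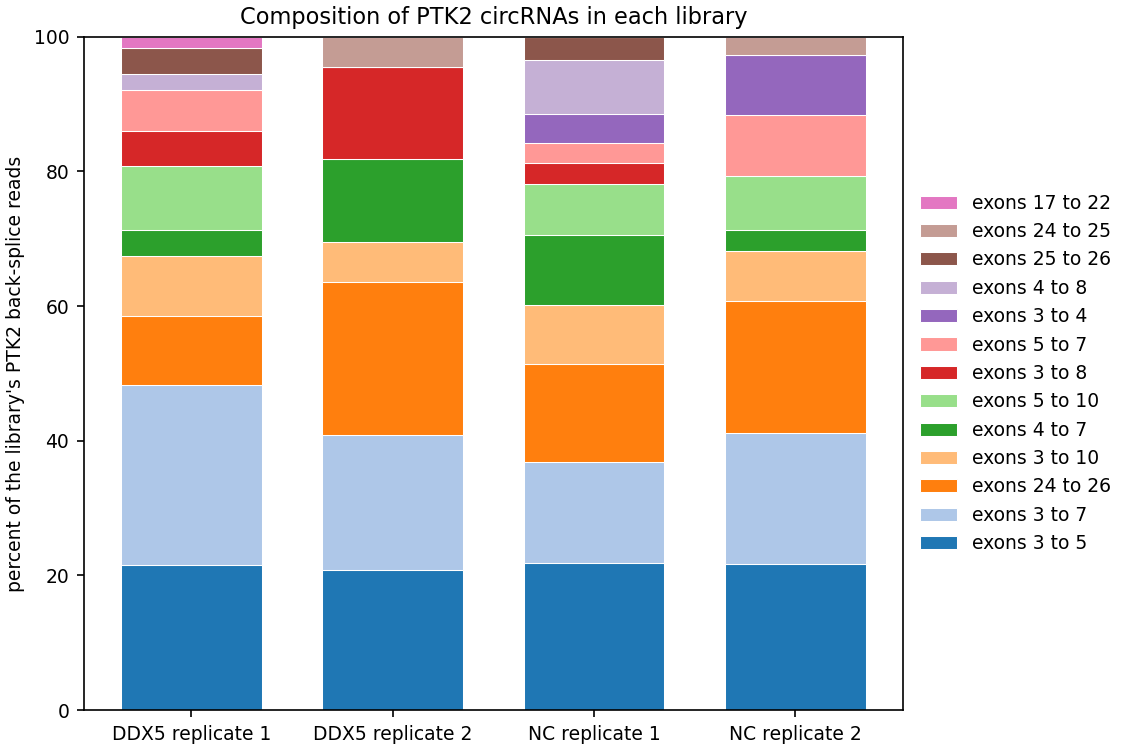
Share of each PTK2 circle in the PTK2 back-splice reads of each library, in percent, with 1 stacked bar per library that adds up to 100. The exon 3 to 5 circle at the base took between 20.8 and 21.8% in all 4 libraries, while the exon 3 to 4 circle appears in the NC bars only and the circles that begin at exon 5 are missing from DDX5 replicate 2.

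Detection varied among libraries of the same group. Of the 13 PTK2 circles with reads, 5 were seen in all 4 libraries, 3 in 3, 4 in 2 and 1 in 1. In 31 cases a library held 10 or more reads of a PTK2 circle, and in 5 of them, 16.1%, the other library of its group had none. Over all circRNAs this happened in 3028 of 8497 cases, 35.6%. The KANK2 exon 5 to 6 circle, with 2 such values, had reads in both DDX5 libraries. Its selection as higher in DDX5 cells made this likely, so nothing is read from it.

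For reading these differences, 2 of the 16 circles with reads had both DDX5 libraries above both NC libraries, KANK2 exons 5 to 6 and PTK2 exons 3 to 8, and 1 had both NC libraries above, PTK2 exons 3 to 4. Over all circRNAs with reads the corresponding shares were 6.77% and 7.92%. In edgeR's quasi-likelihood test over 4671 circRNAs with at least 10 reads, of which 13 belonged to KANK2 or PTK2, an adjusted p under 0.05 was reached by 0.0856% of circRNAs. Those circRNAs included 1 of the 13, KANK2 exons 5 to 6, and 0 of the 13 without either DDX5 library, with the replicate number as a block or with a filter of 20 reads. Unadjusted p under 0.05 covered 1.28% of circRNAs in the higher and 1.37% in the lower direction, and 1 of the 13 was counted in each. For host sums the adjusted share was 0% of 2703 genes, and unadjusted shares were 1.11% higher and 1.41% lower, with KANK2 counted among the higher genes, and with DESeq2 among the adjusted calls too. Both genes were selected on this contrast, so these counts are no test of them and nothing is read from them.

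By the distribution of its reads over the 4 libraries, the KANK2 exon 5 to 6 circle was compared with 2107 circRNAs of other hosts that had at least 30 reads. The closest was a circRNA of ARHGEF7 (chr13:111870026-111885640) with 17 and 27 reads in DDX5 cells against 0 and 0 in NC cells, at a distance of 0.000397 between library shares. ARHGEF7, also called beta-PIX, is an exchange factor for RAC1 and CDC42 that sits at focal adhesions with GIT proteins. Next were circRNAs of RBM34, with 17, 28, 0 and 0 reads at a distance of 0.0116, and RRP12, with 12, 18, 0 and 0 reads at 0.0175. With so few reads the order among them is not read as a result. A link of any of them to KANK2 was not tested.

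The PTK2 exon 3 to 4 circle was closest to circRNAs of USP8, a deubiquitinase (0, 0, 8 and 26 reads in DDX5 and then NC replicates), NPHP4 (0, 0, 7 and 23) and FOXRED1 (0, 0, 10 and 29). The exon 3 to 5 circle was closest to circRNAs of ELMSAN1 (17, 9, 15 and 21 reads), BCL11B (13, 6, 11 and 16) and ADD3 (21, 10, 19 and 29). These orders rest on 4 libraries, and they describe patterns of few reads.

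Other genes of focal adhesions were then read from a list of 109 genes in 7 roles that leaves out KANK2 and PTK2. Of these, 64 were listed as hosts, 52 had reads, and 42 were tested as host sums together with all 2703 host genes. By edgeR's quasi-likelihood test none of the 42 hosts rose or fell in DDX5 cells at an adjusted p under 0.05, and none had an unadjusted p under 0.05. In the same fit 0% of all 2703 hosts passed the adjusted threshold. Unadjusted p under 0.05 covered 1.11% of them in the higher and 1.41% in the lower direction. The lack of calls, here and by role below, therefore does not set these hosts apart. With DESeq2, 0 of the 42 hosts passed the adjusted threshold and 1 had an unadjusted p under 0.05. The median log2 fold change of the 42 hosts was 0.22, beside -0.13 over all hosts tested. Summed over the list, circRNA levels were 21409 and 20456 RPM in DDX5 cells against 19433 and 17813 RPM in NC cells. The host CRKL alone supplied 3126, 2659, 3704 and 0 RPM of these sums, in the same order of libraries. The separation of the groups depended on its 0 in NC replicate 2, so no difference is read from the sums.

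Among single circRNAs of the list, 85 were tested and none passed the adjusted threshold in either direction, while 4 were higher and 1 was lower at an unadjusted p under 0.05. With DESeq2 0 passed and 1 had an unadjusted p under 0.05. Their median log2 fold change was 0.07, beside -0.27 over all circRNAs tested. The circRNA of ARHGEF7 described above had 333 ± 164 RPM in DDX5 cells (SD, n = 2) and was at least 18.1-fold higher by the NC floor, with an unadjusted p of 0.00785 and an adjusted p of 0.95 in edgeR's quasi-likelihood test, and between 0.661 and 1 in the 10 alternative fits. In contrast the summed ARHGEF7 level was 653 ± 346 RPM in DDX5 cells against 389 ± 27.8 RPM in NC cells, and other ARHGEF7 circles had reads in NC cells.

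Another 3 circRNAs with an unadjusted p under 0.05, all in the higher direction, are named after their values were seen. Circles of VASP, which promotes actin filament growth (42, 0, 0 and 0 reads), and ASAP1, a GTPase-activating protein for Arf proteins (41, 0, 0 and 0), each rested on 1 library. A circle of TNS3, a tensin, had 48 and 47 reads in DDX5 cells against 25 and 0 in NC cells, 697 ± 119 against 171 ± 242 RPM. Its adjusted p in edgeR's quasi-likelihood test was 0.95, and in the 10 alternative fits it lay between 0.00258, without NC replicate 1, and 1.

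By role, the highest levels among these hosts were in the signalling, actin and KANK complex groups. KANK1, KANK3 and KANK4 were not listed as hosts, and PTK2B, the closest relative of PTK2, was listed with no reads. Of the proteins that join KANK scaffolds to cortical microtubules, 5 had reads and 0 of 5 passed the test. PPFIA1, a liprin, had 1210 ± 51.3 RPM in DDX5 cells against 1111 ± 624 RPM in NC cells (SD, n = 2), and CLASP1, which binds microtubule ends, had 950 ± 27.6 and 1081 ± 403 RPM. In contrast to KANK2, both were read in all 4 libraries.

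Of the kinases, phosphatases and adaptors around focal adhesion kinase, 9 hosts were tested and 0 passed. CRKL, an adaptor with SH2 and SH3 regions, had the highest mean level of the list, with 245 and 160 reads in DDX5 cells against 271 and 0 in NC cells. NC replicate 2 was at 0 while the other 3 libraries were high, and the adjusted p of its host sum in the 10 alternative fits lay between 0.000137, without NC replicate 1, and 1.0. PTPRA, a receptor phosphatase that activates SRC family kinases, had 957 ± 343 RPM in DDX5 cells against 987 ± 294 RPM in NC cells. SRC itself, named after its values were seen, had 8 reads, all in DDX5 replicate 1.

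Regulators of small GTPases had 9 tested hosts and 0 calls. DOCK1, an exchange factor for RAC1, had 828 ± 254 RPM in DDX5 cells against 1140 ± 163 RPM in NC cells. Of the ASAP1 reads in DDX5 replicate 1, 41 came from the circle named above that was read in that library only. Over all its circles ASAP1 had 63 and 50 reads in DDX5 cells against 29 and 26 in NC cells, 817 ± 19.1 against 331 ± 92.6 RPM. Its log2 fold change was 1.26 (SE 0.64) with an unadjusted p of 0.076 and an adjusted p of 1.0 in edgeR's quasi-likelihood test.

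The actin link had 14 tested hosts and 0 calls, with a median log2 fold change of -0.47. TNS4, a tensin, had 1797 ± 232 RPM in DDX5 cells against 2140 ± 124 RPM in NC cells, and VASP had 1680 ± 331 and 1173 ± 99.8 RPM. VCL, which encodes vinculin, had 77.9 ± 16.2 RPM in DDX5 cells against 249 ± 92.3 RPM in NC cells, and ACTN1, an alpha-actinin, had 126 ± 37.8 and 426 ± 112 RPM. These rested on few reads, 7 and 4 against 23 and 18 for VCL and 12 and 6 against 37 and 34 for ACTN1. The TNS3 sum went the other way, with 872 ± 223 RPM in DDX5 cells against 367 ± 273 RPM in NC cells. VCL, ACTN1 and TNS3 were named after their values were seen, and none passed the test.

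Integrins, the talin layer and the matrix gave few reads. ITGB5 was the only integrin host tested, with 17 and 9 reads in DDX5 cells against 7 and 0 in NC cells, and ITGAV had 7 reads in DDX5 replicate 1 only. Among talins and their partners, TLN2 had 10, 3, 8 and 0 reads and RSU1 12, 0, 0 and 0. Laminin chains supplied the matrix hosts, with LAMC1 at 400 ± 283 RPM in DDX5 cells against 369.9 ± 39.9 RPM in NC cells and LAMA5 at 200.4 ± 95.5 and 45.9 ± 65 RPM. None of these passed the test.

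**Figure D4:**
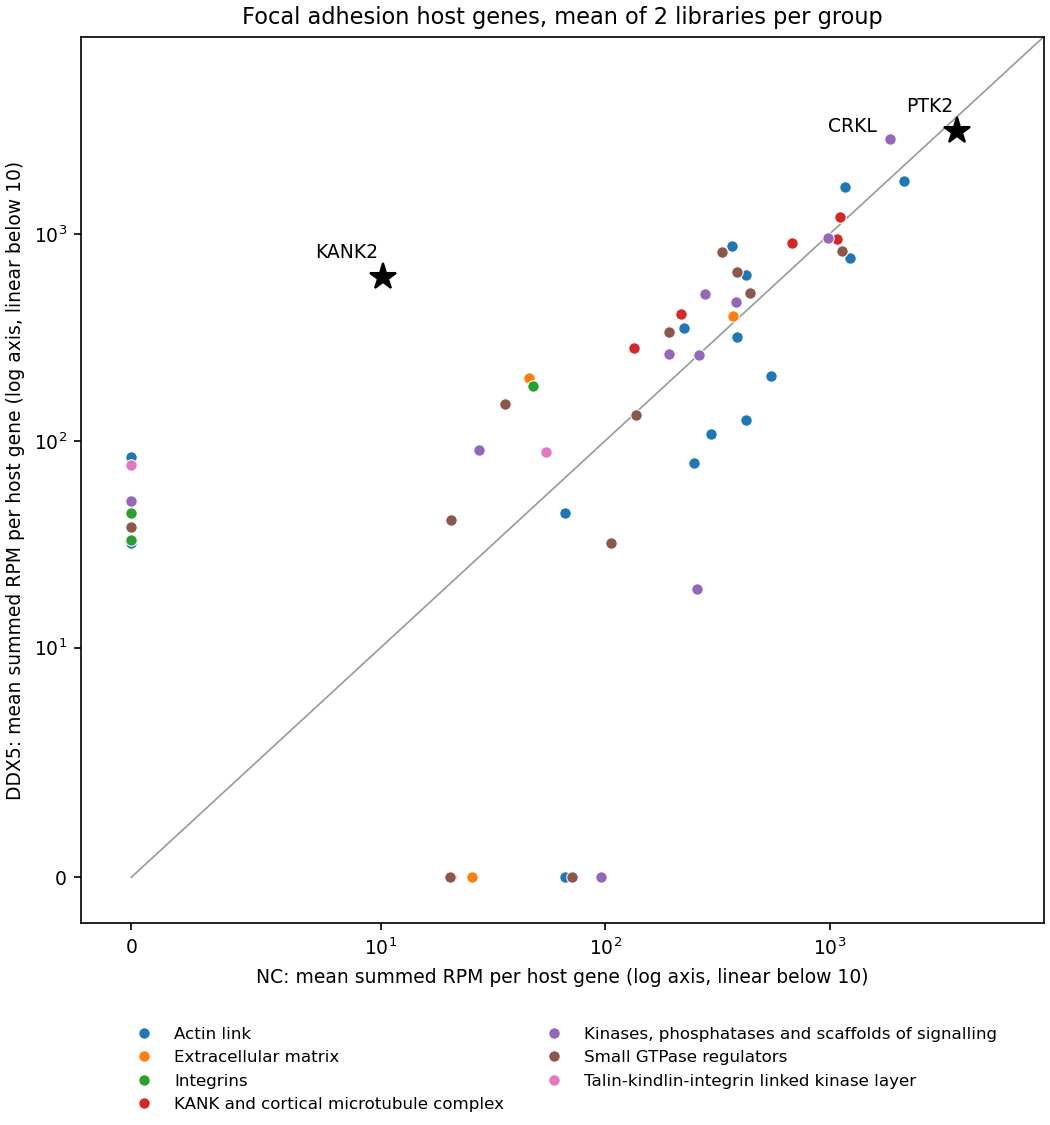
Mean summed circRNA level of each focal adhesion host gene with reads, NC cells on the horizontal and DDX5 cells on the vertical axis, in RPM on log axes that are linear below 10, with 1 point per gene coloured by role, stars for KANK2 and PTK2 and the line of equal levels. KANK2 lies at 10.2 RPM in NC cells and 618 RPM in DDX5 cells, away from the line, and PTK2 at 3708 and 3142 RPM, near it.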

How the data were processed

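CircRNA-seq libraries of 4 AGS samples were grouped by their labels. The authors deposited, for each circRNA, the count of reads across its back-splice. A further deposited table holds RPM, the same counts scaled to an equal library total (recalculated to within 0.00499 RPM). The paper names CIRCexplorer2 and CIRI2 and the processing notes name BWA and hg38, without versions. The smallest count above 0 is 2. Total reads per library, between 60178 and 97961, set the precision.

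Circles were placed on exons of GENCODE 29 (GRCh38) by 1 shift per gene. The count tables of circRNAs and of host sums with at least 10 reads were tested with edgeR 4.0.16 (R 4.3.3, TMM factors, quasi-likelihood) and Benjamini-Hochberg adjustment. Python 3.11.15 with pandas 2.3.3 served for the tables. Alternatives were DESeq2 1.42.0, other scalings, filters of 1 and 20 reads, a replicate block and omission of each library in turn. Shares have 95% Wilson intervals, floors are 3 reads, and patterns were compared by Euclidean distance of library shares.

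The members and gene lists were chosen with earlier results of these data known. Named are all KANK2 and PTK2 circles with reads, the 2 highest hosts per role of the list, any that passed the test, and the 3 nearest patterns. Any other host or circRNA was named after its values were seen. Other experiments of the paper were not analysed here. Values of 1 circRNA of the list are left out here.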

Additional observations from a re-analysis of the deposited data

How the results depend on the processing

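With 2 libraries per group and few reads per circle, a single library can decide a value, and reads of 0 in 1 library of a group are frequent. Of 39 values recomputed under alternatives, 34 kept their number of calls or moved by less than the spread between libraries. For some of the 34 no other outcome was possible with 2 libraries per group. These are the KANK2 sum without either DDX5 library and the shares averaged over libraries. The PTK2 ratio without any 1 library belongs here too, because its libraries lay too close for another outcome. These values say nothing on stability. The PTK2 ratio stayed within the spread although its sign changed without DDX5 replicate 2. The replicate block called 1 focal adhesion host and 1 circRNA of the list, against 0 and 0 without it, and each was CRKL (log2 fold change 2.97, adjusted p 0.00334 for the host, and 3.40, adjusted p 0.000207 for the circRNA). Leaving out each library in turn gave between 0 and 1 called host and between 0 and 2 called circRNAs of the list. Here the 1 host was CRKL and the 2 circRNAs were those of CRKL and TNS3, all without NC replicate 1. Same-numbered libraries did not deviate together (correlation of deviations 0.00541 over 4671 circRNAs), so the numbers are not taken to pair the libraries. Over all circRNAs, 4 were called higher and 0 lower, against 11 and 2 with the replicate block, 2 and 0 with DESeq2, 3 and 0 with a filter of 1 read and 0 and 0 with a filter of 20 reads. Over all hosts 0 were called, against 3 and 0 with the replicate block, 2 and 2 with DESeq2 and 2 and 0 with a filter of 1 read. Omitting DDX5 replicate 1 left no called circRNA, and omitting DDX5 replicate 2 left 1 higher and 6 lower. Omitting NC replicate 1 gave 32 higher and 1 lower, and omitting NC replicate 2 gave 17 higher and 2 lower. No host was called when either DDX5 library was omitted, while 12 were higher and 0 lower when NC replicate 1 was omitted, and 4 and 0 for NC replicate 2.

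The PTK2 log2 ratio was -0.33 with TMM factors, -0.52 from raw counts and -0.25 from circles with at least 10 reads, and it lay between -0.53 and 0.00695 when a library was left out. The mean KANK2 sum in DDX5 cells was 589 CPM with TMM factors, 567 RPM from circles with at least 10 reads, 41.5 reads as raw counts, which is another unit, and between 472 and 764 RPM with either DDX5 library alone.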
